A study of Mus musculus with 4 samples.

Results

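Interferon-stimulated genes were followed in CD4+ T cells of the brain and the spleen of mice with experimental autoimmune encephalomyelitis (EAE), a model of autoimmune brain and spinal cord disease set off by immunization. The set is a list of 35 of the 33696 genes in the count tables: 26 effectors, 4 sensors of foreign nucleic acid, 4 transcription factors and 1 feedback protease. Of these, 32 were kept because they reached 10 CPM (UMI counts rescaled so that libraries of unlike depth compare) in at least 1 tissue. Both tissues came from wild-type C57BL/6 mice on day 60 after immunization. Conventional T cells, sorted as CD4+ CD44+ GITR- (CD44 marks antigen experience), were loaded and sequenced in droplets for RNA and for the T cell receptor (TCR). There was 1 RNA and 1 TCR library per tissue. How many mice were pooled was not given in the labels. No comparison between the tissues could therefore be tested against replicates, and all intervals are 95% intervals of counting error only.

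Interferons are secreted signals that warn cells of infection. The type I interferons (alpha and beta) bind the receptor IFNAR and activate the kinases JAK1 and TYK2. Downstream, STAT2 and IRF9 take part in a complex, ISGF3, that binds interferon-stimulated response elements (ISRE) in promoters. Gamma interferon, a product of T cells and NK cells, signals through IFNGR to factors that bind gamma-activated sites (GAS), and Irf1 is a known target of that route. Many of the induced genes encode proteins that block steps of viral replication, and T cells that express them as a group are commonly seen in inflamed tissue.

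Promoter letters are shown for some members with an ISRE match on which the comparisons below turn, together with Irf1, whose behaviour differed from theirs. The ISRE letters searched were GAAANNGAAA on both strands (TTTCNNTTTC on the other strand), and the GAS letters were TTCNNNGAA, which reads alike on both strands. Matches to both could overlap. RefSeq promoter windows of assembly GRCm38.p6 were matched for 27 of the 35 members, and 16 of these (59.3%) held at least 1 ISRE match, against 3.99% of the 27025 genes with a window. A GAS match stood in 6 of the 27 (22.2%), against 9.55% of all. Cmpk2 and Oasl2, which are among the genes used below to pick out responding cells, had a window with neither match. So did Slfn1, Irf7, Irf9, Xaf1, Oasl1 and Ifi44. In the stretches below, capitals mark the matches, overlapping ones being merged, and all letters read in the direction of the gene.
Ifit1 (chr19:34640765-34640833, plus strand): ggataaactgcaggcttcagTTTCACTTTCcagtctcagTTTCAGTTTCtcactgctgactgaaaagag
Ifit3 (chr19:34583353-34583436, plus strand): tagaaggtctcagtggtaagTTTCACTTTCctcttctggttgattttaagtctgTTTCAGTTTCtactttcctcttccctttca
Ifit3b (chr19:34607749-34607832, plus strand): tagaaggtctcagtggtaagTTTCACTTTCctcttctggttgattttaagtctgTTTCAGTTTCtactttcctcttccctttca
Isg15 (chr4:156200855-156200916, minus strand): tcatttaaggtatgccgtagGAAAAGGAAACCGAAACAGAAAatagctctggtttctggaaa
Rsad2 (chr12:26456543-26456592, minus strand): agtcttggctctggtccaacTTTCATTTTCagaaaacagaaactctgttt
Slfn5 (chr11:82951927-82951976, plus strand): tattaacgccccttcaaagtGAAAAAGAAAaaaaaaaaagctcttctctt
Bst2 (chr8:71537567-71537628, minus strand): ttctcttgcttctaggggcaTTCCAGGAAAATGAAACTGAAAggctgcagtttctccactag
Irf1 (chr11:53769904-53769952, plus strand): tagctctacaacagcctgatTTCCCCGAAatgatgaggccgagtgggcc

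The first ISRE match lay 104 bases before the annotated start in Ifit1, 156 in Ifit3, 188 in Ifit3b, 78 in Isg15, 120 in Rsad2, 155 in Slfn5 and 130 in Bst2. In Bst2 a GAS match 136 bases before the start overlaps it. Irf1 held a GAS match 90 bases before its start and no ISRE match in its window. The stretches of Ifit3 and Ifit3b are identical over 84 bases. These genes are near-identical copies, so reads may have been divided between them by the authors' counting, and the value of each is uncertain in that sense. The same caution applies to Oas1a, the Slfn genes, Trim30a and Gbp2, which belong to families of similar genes. Mx1, Oas2, Usp18, Zbp1, Rtp4, Ifi27l2a, Dhx58 and Parp14 had no window in the table.

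After filtering, 3951 brain cells with 41160930 unique molecular identifiers (UMIs, 1 per captured RNA molecule) and 7991 spleen cells with 60457421 UMIs remained. The median cell held 9840 UMIs in brain and 7190 in spleen, and this difference in depth bears on every share of cells in which a gene was detected. All 5 T cell marker genes were present in both tissues, with a summed level of 2838 CPM in brain and 3148 in spleen, and Cd4 stood at 338 and 341 CPM. Among the marker genes of other cells, Ighm, Cst3, Mbp, Pecam1, Cd8b1, Klrb1c and Tcf4 reached 10 CPM in a tissue, with Ighm at 101 CPM in brain and 292 in spleen. In the 2 RNA libraries 15 cell barcodes were shared.

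Over all cells, a handful of antiviral effectors were higher in brain, and most members differed little. To be called higher or lower, a gene had to differ at least 1.5-fold, with an interval clear of 1, and to reach 10 CPM in the tissue where it was higher. By this rule 7 of the 32 members were higher in brain, 0 were lower, and 25 were neither. Among the 8638 genes tested, 9.78% were higher and 8.67% lower in brain. The median log2 ratio was 0.30 over the 32 members and -0.095 over all genes tested. Ifit3b and Rsad2 reached 10 CPM only in brain, so that their being called follows in part from the level filter. Oasl1, Oas2 and Ifi44 stayed at 4.33 to 5.84 CPM in both tissues and were not compared. The kept members nearest the limit were Ifit3b and Rsad2, at 16.5 and 17.9 CPM in brain.

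The IFIT proteins bind foreign RNA and block its translation. Ifit3 (ENSMUSG00000074896) stood at 56.1 CPM in brain against 21.5 in spleen, giving a ratio of 2.61 (2.44 to 2.80), and was detected in 13.7% and 6.02% of cells. Its copy Ifit3b stood at 16.5 and 5.71 CPM, a ratio of 2.90 (2.54 to 3.31). Ifit1 stood at 49.4 and 29.6 CPM, a ratio of 1.67 (1.57 to 1.78). Ifit2, of the same family and the same gene cluster on chromosome 19, did not follow them: it stood at 35.4 CPM in brain against 37.9 in spleen, giving a ratio of 0.94 (0.88 to 0.999).

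Mx1, a gene of the Mx GTPase family, was 2.57-fold (2.34 to 2.83) higher in brain, with 29.1 against 11.3 CPM. Rsad2 (viperin), which makes a chain-terminating nucleotide, was 2.45-fold (2.17 to 2.76) higher, with 17.9 against 7.31 CPM. Its neighbour Cmpk2, a nucleotide kinase, stood at 23.0 and 14.1 CPM, a ratio of 1.63 (1.49 to 1.80). Oasl2, of the oligoadenylate synthetase-like family, stood at 24.2 and 12.1 CPM, a ratio of 1.99 (1.81 to 2.20). These 4 genes, with Ifit1, Ifit3 and Isg15, are the 7 genes used below to pick out responding cells. Isg15, a ubiquitin-like modifier, stood at 135 and 96.2 CPM, and its ratio of 1.40 (1.35 to 1.45) stayed under 1.5. Thus 6 of those 7 genes and 1 of the other 25 kept members, Ifit3b, were called higher in brain.

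The other effectors lay on both sides of equality. Bst2 (tetherin), which holds budding virus at the membrane, stood at 207 CPM in brain against 147 in spleen, giving a ratio of 1.40 (1.36 to 1.45). Gbp2, a guanylate-binding protein that attacks intracellular vacuoles, gave 1.40 (1.34 to 1.47), and Oas3 gave 1.41 (1.29 to 1.55). Rtp4, Oas1a, Xaf1, Ifi35 and Trim30a had ratios between 1.04 and 1.24. Ifi27l2a stood at 807 and 839 CPM, a ratio of 0.96 (0.95 to 0.97), and Eif2ak2, the kinase PKR that halts translation, gave 0.96 (0.90 to 1.01).

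At the low end stood the Schlafen genes, regulators of T cell quiescence and of transfer RNA cleavage. Slfn1 was at 199 CPM in brain against 270 in spleen, giving a ratio of 0.74 (0.72 to 0.76). Slfn5 gave 82.0 and 106 CPM, a ratio of 0.78 (0.74 to 0.81), and Slfn8 gave 73.9 and 94.2 CPM, a ratio of 0.78 (0.75 to 0.82). Parp14, a mono-ADP-ribosyltransferase, gave 0.82 (0.79 to 0.86). None of these 4 reached the 1.5-fold limit.

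Sensors and transcription factors were not called in either direction. Ifih1 (MDA5), a sensor of long double-stranded RNA, stood at 64.8 CPM in brain against 44.3 in spleen, giving a ratio of 1.46 (1.38 to 1.54). Ddx58 (RIG-I, listed as Rigi in the tables), Dhx58 (LGP2) and Zbp1 gave 0.96, 1.28 and 1.22. Irf1 stood at 274 and 186 CPM, a ratio of 1.47 (1.43 to 1.51), and was detected in 70.3% and 58.7% of cells. Irf7, which amplifies type I interferon production, gave 1.35 (1.30 to 1.40). Irf9 and Stat2, the parts of ISGF3 in the list, gave 0.86 (0.82 to 0.90) and 1.05 (0.99 to 1.11). Usp18, which removes ISG15 from proteins and damps IFNAR signalling, gave 0.93 (0.86 to 1.002). The nearness of Irf1 and Ifih1 to the limit mattered: with totals scaled by TMM factors both were called higher in brain (log2 ratios 0.61 and 0.59), which made 9 called members. From per-cell means, which weight each cell equally, Isg15, Oas3 and Ifih1 joined the 7 (log2 ratios 0.68, 0.62 and 0.63).

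**Figure D1:**
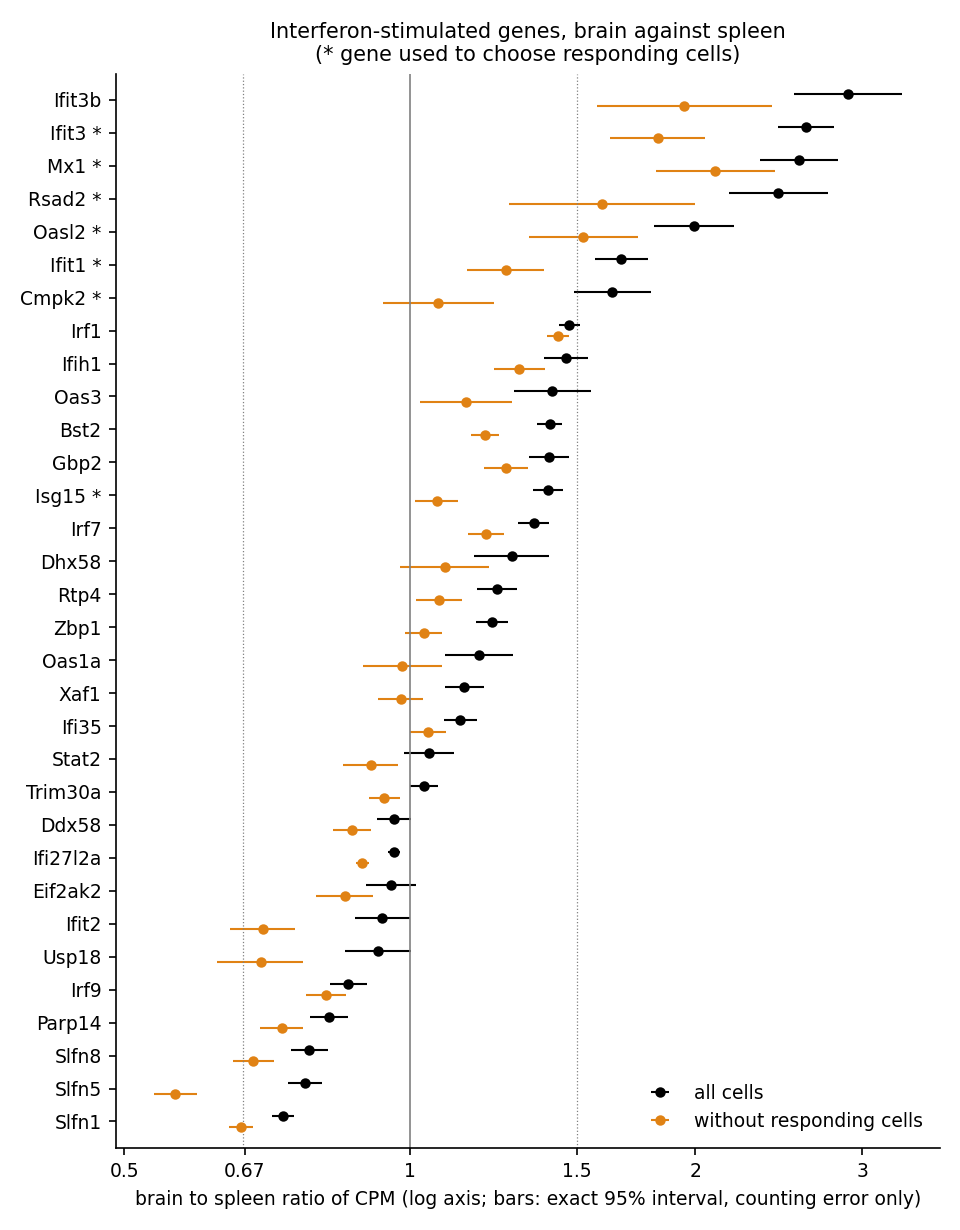
Ratio of CPM in brain to CPM in spleen on a log axis for the 32 kept members, over all cells (black) and without responding cells (orange), with exact 95% intervals of counting error and dotted lines at the 1.5-fold limits. Over all cells 7 members lie beyond 1.5 on the brain side, and without responding cells the points shift to the left, with Slfn5 at 0.57 and Mx1 at 2.10.

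Responding cells were defined as cells with a UMI of at least 5 of the 7 genes Ifit1, Ifit3, Rsad2, Isg15, Mx1, Oasl2 and Cmpk2. They made up 233 of 3951 brain cells, 5.90% (5.18 to 6.68), and 146 of 7991 spleen cells, 1.83% (1.54 to 2.15). The share in brain was 3.23 times (2.61 to 4.0) that in spleen. Deeper cells meet such a rule more easily, so each cell was also thinned to 5000 UMIs, leaving out 451 brain and 1408 spleen cells with fewer. The shares were then 3.74% and 1.26%, a ratio of 2.97 (2.24 to 3.96), and at 3000 UMIs they were 2.07% and 0.711%, a ratio of 2.91 (2.02 to 4.21). All 7 genes were detected in 65 brain cells and 27 spleen cells.

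The limit of 5 genes cuts a continuous range and does not mark off a separate type. In brain 113 cells had exactly 4 of the 7 genes and 92 had exactly 5, and in spleen 92 and 62. At least 1 of the 7 genes was detected in 46.1% of brain and 31.5% of spleen cells, and at 5000 UMIs in 35.7% and 27.4%. No cell type that lacks these genes was present to measure free RNA. Among 168 B-like spleen cells left out of the comparisons, with a median of 5443 UMIs, 1 met the limit. Responding cells were T cells by their markers: their T cell list summed to 2781 CPM in brain and 3015 CPM in spleen, and 82.0% and 93.2% of them had a paired receptor.

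**Figure D2:**
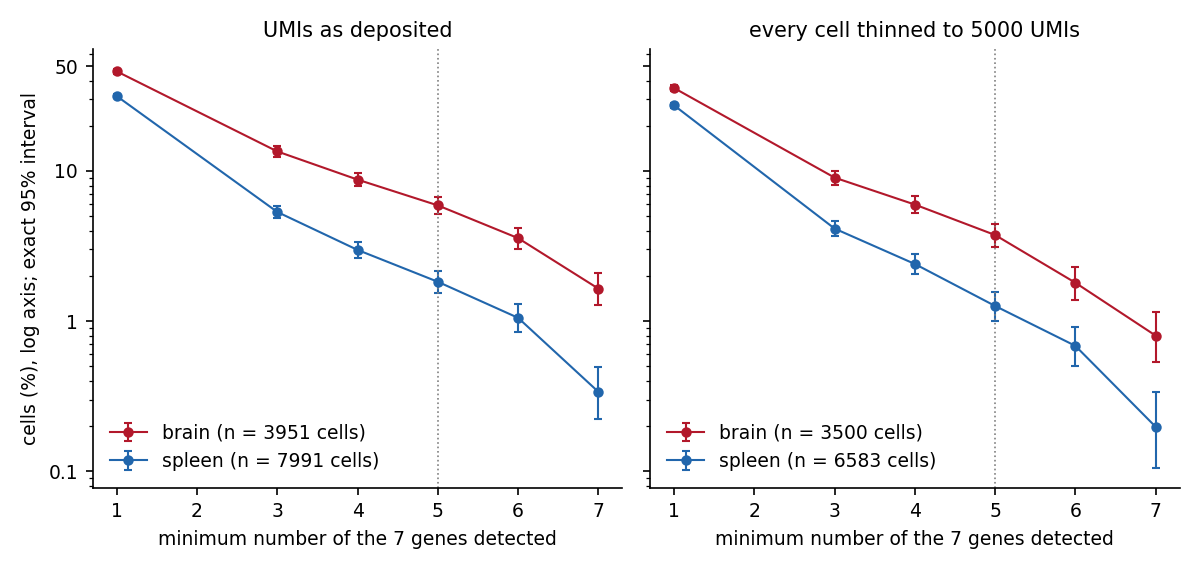
Share of cells (log axis) with at least the given number of the 7 genes detected, in brain and spleen, with UMIs as deposited (left) and with each cell thinned to 5000 UMIs (right), with exact 95% intervals. The brain share is higher at each limit drawn, 5.90% against 1.83% at 5 genes on the left and 3.74% against 1.26% on the right.

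Cells chosen by the 7 genes carried nearly the whole of the remaining list with them, in both tissues. Counts are given over genes that reached 10 CPM in the other cells, since a gene that passed only through responding cells could be called in 1 direction only. Of the 24 such kept members outside the 7, 24 were at least 1.5-fold higher in responding than in other brain cells, and 23 of 24 in spleen. Among all genes that reached 10 CPM in the other cells, 3.15% were higher and 4.39% lower in responding cells of the brain, and 4.27% higher and 6.48% lower in those of the spleen. The 7 genes themselves were chosen by the rule and are given only as a description, with ratios from 15.8 to 45.9 in brain and from 23.7 to 73.0 in spleen.

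Ifit3b, under 10 CPM in other cells and with counts entangled with those of Ifit3, had ratios of 30.2 in brain and 45.5 in spleen. Usp18 had the highest ratio of the 24, with 12 (10.6 to 13.6) in brain and 15.3 (13.7 to 17.0) in spleen. Slfn5 stood at 488 CPM in responding and 50.4 CPM in other brain cells, a ratio of 9.69 (9.05 to 10.4), and in spleen at 772 and 89.0 CPM, a ratio of 8.68 (8.13 to 9.25). Ifit2 was 7.60-fold (6.82 to 8.46) and 5.26-fold (4.61 to 5.97) higher. Irf7 stood at 511 against 94.1 CPM in brain and 642 against 78.2 CPM in spleen. Ifih1, Dhx58, Zbp1 and Ddx58 had ratios of responding to other cells between 3.52 and 6.37 within brain and between 3.71 and 8.36 within spleen.

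At the low end, Irf9 was 2.32-fold (2.10 to 2.56) higher in responding brain cells and 2.51-fold (2.23 to 2.82) in spleen. Irf1 was lowest in both tissues. It stood at 402 against 264 CPM in brain, a ratio of 1.52 (1.43 to 1.62), and at 254 against 184 CPM in spleen, a ratio of 1.38 (1.24 to 1.53), the one value under the limit. The ratio for Stat2 was 4.81 and 5.33. Oasl1, Oas2 and Ifi44 reached 10 CPM in responding cells alone, so that their values, 15.7, 12.2 and 15.4 in brain and 16.4, 18.1 and 23.4 in spleen, are a description and are not counted.

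**Figure D3:**
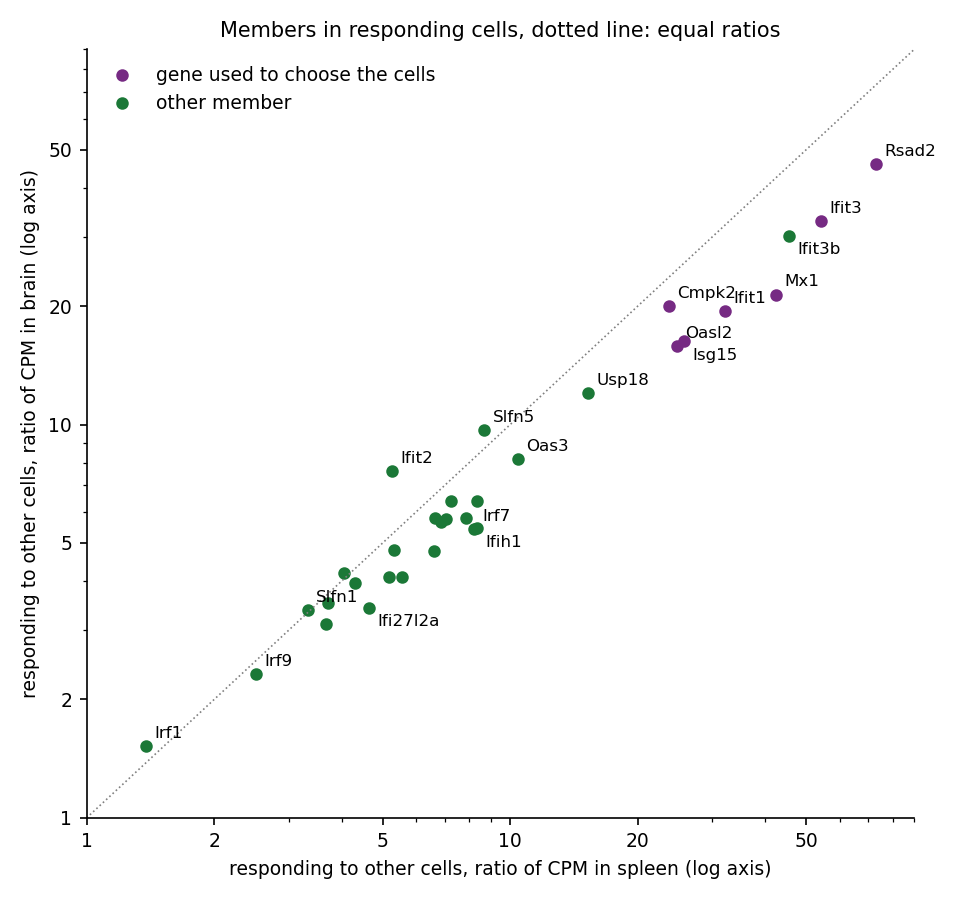
Ratio of CPM in responding to other cells for the 32 kept members in spleen (x) and brain (y), both on log axes, with the 7 genes that choose the cells in purple. Rsad2 lies at the top (45.9 in brain, 73.0 in spleen) and Irf1 at the bottom (1.52 and 1.38), and most members lie below the line of equal ratios.

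Removing the responding cells separated the list. Of 29 members that still reached 10 CPM, 3 were higher in brain: Mx1 at 2.10-fold (1.82 to 2.43), Ifit3 at 1.83-fold (1.63 to 2.05) and Oasl2 at 1.52-fold (1.33 to 1.74). Among 8649 genes tested in these cells, 9.84% were higher and 8.75% lower in brain. All 3 belong to the 7 genes on which cells were removed. Of the 24 tested members outside the 7, 0 were higher and 2 were lower in brain, Slfn5 at 0.57 (0.54 to 0.60) and Slfn1 at 0.66 (0.65 to 0.68), which was lost under either other scaling, with TMM at a log2 ratio of -0.54 instead of -0.59, and under several other choices of cells. When cells without a paired receptor were left out, both Slfn1 and Oasl2 fell short of the limit (log2 ratios -0.58 and 0.56). The median log2 ratio of those 24 was -0.061, against -0.092 for all genes. With responding cells called and levels compared at 5000 UMIs per cell, 3 of 30 members were higher and 1 was lower, against 10.2% and 8% of all genes, and of the 24 outside the 7 genes 0 were higher. Ifit3b and Rsad2 were under 10 CPM in the cells left and had ratios of 1.95 (1.58 to 2.41) and 1.59 (1.27 to 2.0).

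Members that were not called over all cells also had lower ratios when responding cells were left out. Isg15 went from 1.40 to 1.07 (1.01 to 1.12), Bst2 from 1.40 to 1.20, Irf7 from 1.35 to 1.20 and Ifih1 from 1.46 to 1.30. Usp18 went from 0.93 to 0.70 (0.63 to 0.77) and Ifit2 from 0.94 to 0.70 (0.65 to 0.76). Irf1 hardly moved, from 1.47 to 1.43 (1.39 to 1.47).

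Counted as molecules, the brain excess of the 7 genes lay mostly in responding cells. The 7 genes summed to 334 CPM in brain and to 192 in spleen, a difference of 142 CPM. Responding cells held 205 CPM of this in brain and 83.8 CPM in spleen, which is 121 of the 142 CPM, and other cells held 129 and 108 CPM, the remaining 21.2. Because the cells were chosen on these genes, the size of that division follows in part from the rule. The other 28 listed members summed to 2903 CPM in brain and 2776 CPM in spleen. Of that sum responding cells held 709 CPM in brain and 314 CPM in spleen, whereas other cells held 2194 and 2462 CPM. For these 28 genes the responding cells of the brain gave 395 CPM more of the tissue total, and its other cells 268 CPM less, than their spleen counterparts. Such parts depend on how many of the UMIs each kind of cell holds, and are not levels within the cells. Scaled to their own UMIs, responding cells had 9819 CPM of the 28 genes in brain and 12808 CPM in spleen. For other cells these levels were 2365 and 2524 CPM. Responding cells were 7.22% of brain UMIs and 2.45% of spleen UMIs, and held 24.4% and 11.3% of the UMIs of those 28 genes.

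Cells with no sign of the 7 genes were compared at equal depth. At 5000 UMIs per cell, 2251 brain and 4782 spleen cells had none of the 7 detected. The 28 other members summed to 1854 CPM (1829 to 1879) in those brain cells and 2086 CPM (2068 to 2104) in those spleen cells. Of 23 members tested, 0 were higher in brain and 4 were lower, against 10.5% and 7.89% of all genes: Slfn5 at 0.48 (0.43 to 0.53), Ifit2 at 0.62 (0.54 to 0.72), Slfn1 at 0.63 (0.59 to 0.66) and Slfn8 at 0.63 (0.57 to 0.69). Irf1 had the highest ratio, 1.40 (1.34 to 1.47). The mean level of the list in such cells was thus not higher in brain, and the values do not show whether single cells among them differed.

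The summed level of the other members was higher with each further step in the number of the 7 genes detected. In brain cells at 5000 UMIs the 28 genes summed to 1854 CPM with 0 genes, 2713 with 1, 4827 with 2, 7456 with 3 to 4 and 13261 with 5 to 7. In spleen the values were 2086, 2995, 5406, 8334 and 15518 CPM. At each step the spleen value exceeded the brain value, and the intervals did not overlap. The sum weighs abundant genes most and does not mean that each member was lower in brain. With 0 genes detected, Slfn1 stood at 157 CPM in brain and 250 in spleen, and Ifi27l2a at 515 and 567 CPM. Of the 23 members tested in those cells, 8 had a brain to spleen ratio above 1. With 5 to 7 detected, 6 of 25 did.

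**Figure D4:**
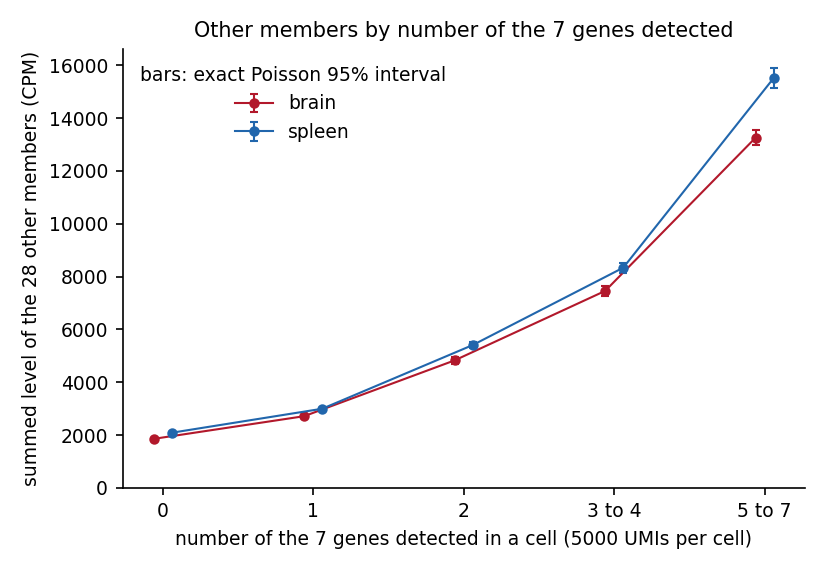
Summed CPM of the 28 members outside the 7 genes, by the number of the 7 detected in a cell thinned to 5000 UMIs, in brain and spleen, with exact Poisson 95% intervals. Both lines climb at each step, from 1854 to 13261 CPM in brain and from 2086 to 15518 CPM in spleen.

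Within responding cells the brain did not show higher levels. Among the 32 members, 1 was higher in responding cells of the brain than in those of the spleen and 4 were lower, against 10.5% and 11.8% of all genes. The higher one was Irf1, at 402 and 254 CPM, a ratio of 1.58 (1.41 to 1.78). The lower ones were Usp18 at 0.55 (0.48 to 0.62), Eif2ak2 at 0.62 (0.54 to 0.71), Slfn5 at 0.63 (0.59 to 0.68) and Ifi27l2a at 0.66 (0.64 to 0.68). Oasl1, Oas2 and Ifi44 reached 34.3 to 37.7 CPM in responding brain cells and 65.5 to 69.6 CPM in responding spleen cells, and had ratios of 0.51, 0.58 and 0.52. In cells called and compared at 5000 UMIs these were 0.57 (0.35 to 0.92), 0.61 (0.37 to 1.03) and 0.84 (0.46 to 1.53), so that the lower value of Oas2 and Ifi44 in brain was lost. Isg15 stood at 1043 CPM in brain against 1543 in spleen, giving a ratio of 0.68 (0.64 to 0.71). Brain cells were deeper, and a deeper cell meets the limit at a lower level. With responding cells called at 5000 UMIs, 0 members were higher and 2 were lower in brain, Slfn5 at 0.66 and Slfn8 at 0.65, against 7.14% and 7.37% of all genes.

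Of the interferon genes themselves, Ifng was the one that reached 10 CPM. It was 14.9-fold (14.1 to 15.8) higher in brain, with 316 CPM there and 21.1 in spleen. Its level in responding brain cells (319 CPM) was close to that in other brain cells (315 CPM), a ratio of 1.01, whereas in spleen it stood at 55.4 and 20.3 CPM, a ratio of 2.73. Ifnb1 and the listed Ifna genes had 0 UMIs in both tissues, which allows up to 0.0729 CPM in brain and 0.0496 CPM in spleen for each. Ifnab had 1 UMI in spleen, and Ifnz had 7 in brain and 3 in spleen.

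The type I receptor genes Ifnar1 and Ifnar2 gave brain to spleen ratios of 1.13 and 1.05. Of the gamma interferon receptor, Ifngr1 stood at 934 and 272 CPM, 3.43-fold (3.37 to 3.49) higher in brain, and Ifngr2 gave 0.98. Of 10 kinases, STATs and interferon regulatory factors, 1 was higher in brain, Irf4 at 5.07-fold (4.68 to 5.49), and 1 lower, Irf3 at 0.63 (0.60 to 0.67), close to the 9.78% and 8.67% of all genes.

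Among 9 negative regulators, 3 were higher and 1 was lower in brain, against 9.78% and 8.67% of all genes. The higher ones were the JAK inhibitors Socs1 (1.79-fold, 1.73 to 1.85), Socs3 (2.53-fold, 2.43 to 2.64) and Cish (5.92-fold, 5.66 to 6.18). The phosphatase gene Ptpn6 was lower, at 0.60 (0.58 to 0.62). Socs1 was 1.56-fold higher in responding than in other cells of the brain, and 2.01-fold in those of the spleen. When responding cells were left out, these 4 genes had ratios of 1.76, 2.45, 5.90 and 0.61.

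A wider list of 43 tested genes known to respond to type I interferon held 8 that were higher and 1 that was lower in brain, against 9.78% and 8.67% of all genes. Ifitm3, an inhibitor of viral entry, stood at 70.6 and 15.8 CPM, 4.48-fold (4.16 to 4.82) higher. Mx2 was 2.88-fold (2.45 to 3.38), Isg20, an exonuclease, 2.68-fold (2.55 to 2.81) and Ube2l6, the ISG15-conjugating enzyme, 2.38-fold (2.17 to 2.61) higher. Ifitm1, Ifitm2, Tor1aip2 and Parp12 were also called (Mx2, Ifitm1 and Parp12 reached 10 CPM only in brain), and Oas1b was lower at 0.61 (0.54 to 0.70). Without responding cells 6 of 42 were higher and 2 lower, against 9.84% and 8.75% of all genes. Of those that reached 10 CPM in other cells, 38 of 41 were higher in responding cells of the brain, against 3.15% of all genes, and 37 of 39 in those of the spleen, against 4.27%. The exceptions were Ifitm1, Ifitm2 and Ly6e in brain, with ratios of 0.69, 0.98 and 1.43, and in spleen Ifitm2 (0.26, lower) and Shisa5 (1.42).

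Of 16 tested genes tied to gamma interferon, mostly GTPases that attack intracellular pathogens, 3 were higher in brain and 1 was lower, against 9.78% and 8.67% of all genes. The higher ones were Gbp6 (2.02-fold), Cd274 (PD-L1, 1.95-fold) and the chemokine gene Cxcl10 (3.89-fold). The immunity-related GTPase gene Irgm2 was lower at 0.61. Of those that reached 10 CPM in other cells, 16 of 16 were higher in responding cells of the brain and 15 of 15 in those of the spleen, against 3.15% and 4.27% of all genes. Cxcl10 stood at 363 against 27.3 CPM in brain, 13.3-fold, and at 268 against 6.85 CPM in spleen, 39.2-fold. Without responding cells its brain to spleen ratio was 3.98. ISRE matches stood in 16 of 40 matched genes of the wider type I list and in 9 of 13 of this list, where 7 of 13 also held a GAS match.

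Responding cells were found in each transcript set described here, apart from the spleen cells with Il17a. These sets overlap, are defined by a UMI of the named genes, and are not cell types. In brain the share responding was 5.28% of cells with Foxp3, 4.10% with Il17a, 7.22% with Ifng, 6.39% with Mki67 and Top2a, and 8.13% of cells with the TRAV11-TRAJ18 alpha chain of invariant NKT cells. In spleen it was 1.47% with Foxp3, 4.43% with Ifng, 4.31% with Mki67 and Top2a, and 3.17% with TRAV11-TRAJ18. Cells with Cxcr5 and Pdcd1 gave 5.88% in brain and 2.31% in spleen, which thinning to 5000 UMIs turned to 1.56% and 2.37%, a ratio of 0.66 (0.015 to 4.91). Cells with Eomes and Gzmk gave 5.66% and 5.26%, and 2.97% and 4.44% after thinning, a ratio of 0.67 (0.077 to 8.0). Il17a was detected in 11 spleen cells, and 0 of them responded.

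The brain share exceeded the spleen share by 3.60 times (1.59 to 8.14) in Foxp3 cells and 1.63 times (1.07 to 2.57) in Ifng cells. After thinning to 5000 UMIs both intervals reached 1: 2.52 (0.80 to 7.60) and 1.40 (0.79 to 2.63). Cells with Mki67 and Top2a gave 2.15 (0.49 to 12.9) after thinning. For TRAV11-TRAJ18 cells the thinned ratio was 3.49 (1.13 to 10.2).

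Immediate-early and heat-shock genes, which respond to tissue digestion and handling as well as to activation, summed to 19336 CPM in brain and 4776 CPM in spleen. Within a tissue their sums were close in the 2 kinds of cells: 20322 CPM in responding and 19259 CPM in other brain cells, and 5143 and 4767 CPM in spleen. In brain the responding share was 4.71% in the tertile of cells with the lowest sum, 6.83% in the middle tertile and 6.15% in the highest. In spleen it was higher with each tertile, at 1.13% (0.76 to 1.60), 2.03% (1.53 to 2.64) and 2.33% (1.79 to 2.97). Among 664 brain cells under the 95th percentile of the spleen cells, 3.61% (2.33 to 5.33) responded, against 1.79% (1.51 to 2.12) of 7591 spleen cells under it. In that comparison 10 of 32 members were higher in brain and 0 lower, against 12.5% and 4.79% of all genes. The part of these genes in the difference between tissues was not tested.

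CD8 transcripts had higher levels in responding than in other brain cells, from 19 responding cells with a UMI of Cd8a or Cd8b1. Cd8a stood at 35.0 CPM in responding and 7.25 CPM in other brain cells and Cd8b1 at 54.9 and 18.2 CPM, whereas in spleen Cd8b1 stood at 12.8 and 14.3 CPM. Among cells with a UMI of either gene, 19 of 263 brain cells responded, 7.22% (4.41 to 11.1), and 10 of 529 spleen cells, 1.89% (0.91 to 3.45). Among cells with no UMI of either gene, 5.80% (5.07 to 6.61) of brain and 1.82% (1.53 to 2.15) of spleen cells responded, a ratio of 3.18 (2.56 to 3.98). Within each tissue the intervals with and without such a UMI overlap. The defining markers of other interferon-rich cells stayed near zero, with Siglech, a plasmacytoid dendritic cell marker, at 0.219 CPM in brain and at 0.0165 in spleen. Of the myeloid markers, Lyz2 stood at 0.583 CPM in brain and 0.165 in spleen, and Csf1r at 0.194 and 0.0165.

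Clones were read from the paired receptors of 3132 brain cells (2131 clonotypes) and 6738 spleen cells (6246 clonotypes). Cells of 1 clone share their origin and are not independent, so the intervals by clone size are too narrow. In brain 7.07% (5.94 to 8.33) of cells in clonotypes of 1 cell responded, 5.11% (3.45 to 7.26) in clonotypes of 2 to 4 cells and 4.41% (3.04 to 6.17) in those of 5 or more. The largest clonotypes, of at least 10 cells, gave 2.78% (1.45 to 4.81), or 12 of 431 cells. The difference between clonotypes of 5 or more and of 1 cell was -2.65 percentage points (-4.44 to -0.59). Median depths were close, at 10242 UMIs for single cells and 10036 for clonotypes of 5 or more. In spleen the shares were 2.0% (1.66 to 2.39), 2.43% (1.30 to 4.11) and 1.40% (0.29 to 4.04), the last from 3 of 214 cells, and the difference was -0.60 points (-1.60 to 2.06). With clonotypes joined by the beta chain alone, the spleen difference was 0.41 points and the brain difference -2.49.

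Levels of the members moved with clone size in the same order in brain. The 7 genes summed to 363 CPM in cells of clonotypes of 1, 287 CPM at 2 to 4 cells and 274 CPM at 5 or more, and the 28 others to 3120, 2661 and 2606 CPM. In spleen the 28 genes summed to 2825, 3020 and 2348 CPM, with no common order.

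Responding cells did not trace back to a few clones. The 191 responding brain cells with a receptor belonged to 179 clonotypes, and the 136 of the spleen to 132. Of 18 brain clonotypes with at least 10 cells, 12 held no responding cell, and the largest, of 67 cells, held 1. The highest share was 3 of 12 cells in 1 clonotype. Among these 18, the 28 other members summed to between 1339 and 6948 CPM, with a median of 2285. Clone mates of a responding cell responded in 7.25% of cases in brain, and mates of other cells in 2.29%. Of the 1292 brain cells in clonotypes of at least 2 cells, 61 responded, and 9 of those 291 clonotypes held at least 2 responding cells. The contrast between mates thus rests on few clonotypes, and whether clone mates respond alike was not tested. In spleen these values were 5.56% and 2.61%, from 16 responding cells in clonotypes of at least 2 cells.

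Clonotypes found in both tissues allow the same clones to be compared. The 188 such clonotypes held 569 brain cells, of which 4.57% (3.01 to 6.62) responded, and 411 spleen cells, of which 2.92% (1.52 to 5.04) responded, and these intervals overlap. Within them 3 of the 32 members were higher in brain and 1 was lower, against 7.84% and 13.3% of all genes. The 7 genes summed to 236 CPM in their brain cells and 214 CPM in their spleen cells, and the 28 others to 2720 and 2712 CPM. In cells of clonotypes found in 1 tissue, the shares were 6.44% (5.52 to 7.46) in brain and 1.96% (1.63 to 2.33) in spleen.

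**Figure D5:**
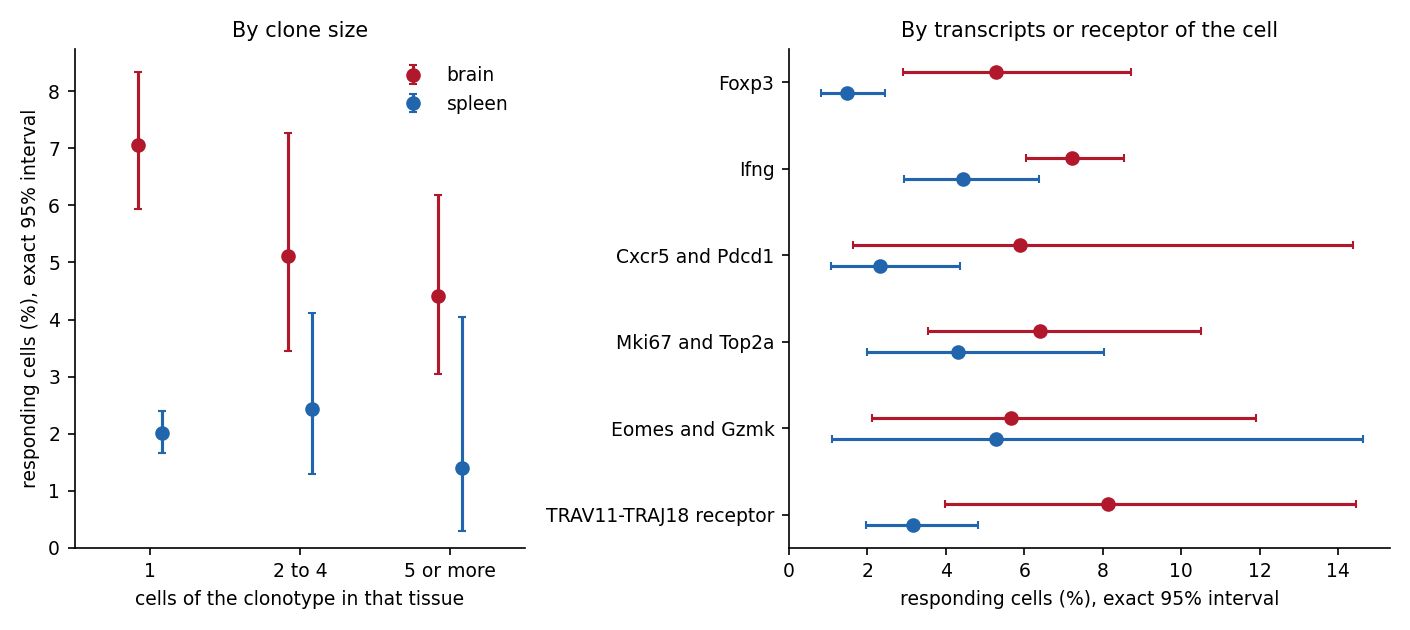
Share of responding cells by the number of cells of their clonotype in that tissue (left) and by the transcripts or receptor of the cell (right), in brain and spleen, with exact 95% intervals that treat cells as independent. In brain the share goes from 7.07% in clonotypes of 1 cell to 4.41% in those of 5 or more, and the sets drawn on the right, which leave out cells with Il17a (4.10% in brain), lie between 5.28% and 8.13% in brain.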

How the data were processed

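RNA and TCR libraries of 1 brain and 1 spleen sample were used. The authors deposited whole UMI counts for each gene and cell, and for each TCR contig its UMI count with V, J and CDR3 calls. The submitters' processing notes list Cell Ranger 9.0.0 and the builds GRCm38, GRCm39, mm10 and mm39, with no role for each. Promoter windows are RefSeq's of GRCm38.p6 and were matched by gene name. Totals were 44386447 UMIs in brain and 65191435 in spleen.

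Barcodes had to show 500 genes, 1000 UMIs and no more than 10% mitochondrial UMIs (4143 brain, 8474 spleen). Barcodes with more than 1 productive TRB or 2 productive TRA chains were left out as doublets (179 and 315), which misses doublets with 1 recovered receptor. A spleen cluster of 168 B-like cells (scanpy 1.11.5, Leiden clustering at resolution 0.8 with igraph 0.11.9, a mean of at least 3 of 5 B cell markers per cell) and 13 brain cells with at least 5 of 9 myeloid markers were also left out. Cells with few T cell genes (313 and 488 with fewer than 3 of 5) were kept.

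Counts were summed per tissue and scaled to CPM. Ratios have exact conditional binomial intervals, which were also used for ratios of shares. Shares have Clopper-Pearson, sums exact Poisson and differences of shares Newcombe intervals. With 1 library per group no p-value was computed. Tested on simulated data for brain against spleen (8402 genes), the call rule found 100 of 100 genes raised 3-fold, 100 of 100 lowered 3-fold and 0 unchanged genes. The simulated counts varied by counting error only, and the changes were well beyond the 1.5-fold limit. This check therefore does not measure false calls from variation between cells, pools or libraries. Cells were joined into clonotypes when both chains had the same V gene and CDR3 nucleotides. Ddx58 was matched by its identifier. Members and gene lists were chosen with earlier results of these data known. Named genes were the members, called genes of the pathway lists, and the 10 leading non-members of responding cells per tissue. Others were chosen after their values were seen. A few listed genes, and cell sets defined with them, are not reported here. Alternatives covered scaling (edgeR 4.0.16 TMM, median-of-ratios), level minimum, cells kept, depth, the limit for responding cells and the clonotype definition.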

Additional observations from a re-analysis of the deposited data

How the results depend on the processing

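Values with no replicate error limit all comparisons: 1 library per tissue cannot tell tissue, pool and library apart, and low members rest on few cells. No paired analysis was possible because each tissue has 1 library. Over all cells, 3 members were higher in brain at a minimum of 25 CPM and 4 at a ratio of at least 2, instead of 7. The median log2 ratio was 0.38 from per-cell means and 0.18 at 25 CPM. Without responding cells, 5 members were higher with no minimum, 0 at 25 CPM, 1 at a ratio of at least 2, 0 when cells with at least 3 of the 7 genes were left out and 1 at 4 of 7, instead of 3. The median was -0.090 at 25 CPM, -0.14 at 3 of 7, -0.099 at 4 of 7, 0.12 at 6 of 7 and 0.12 with cells called at 5000 UMIs. The share of responding cells in brain and spleen was 13.5% and 5.33% at 3 of 7, 8.76% and 2.98% at 4 of 7, 3.57% and 1.05% at 6 of 7, 3.74% and 1.26% at 5000 UMIs, and 2.07% and 0.711% at 3000 UMIs. The clone-size difference in spleen was -4.09 points at 3 of 7 and -1.94 at 4 of 7. No value among the called genes changed direction. Of the values for single genes under these alternatives, 770 kept their side of the limit, 17 lost a call and 13 gained one. Leaving out cells with a Cd8a or Cd8b1 UMI, or those with few T cell genes, both chosen after seeing the data, kept the counts at 7 and 3.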

Other observations

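The genes outside the list that stood highest in responding against other cells, ranked by the lower bound of the ratio among named genes of at least 10 CPM in responding cells, were in brain Ifi204, Mx2, Cxcl10, Phf11d, Ifi211, Gbp10, Ifi214, Ube2l6, Isg20 and Sdc3. In spleen they were Cxcl10, Ifi204, Mx2, Trim30c, Ifi211, Gzmc, Isg20, Ifitm3, Ube2l6 and Gzmb. A gene that passed the level filter only through responding cells could be high there and not low, so these rankings are a description. Of the genes named, those that also reached 10 CPM in other cells were Cxcl10, Ifi214, Ube2l6 and Isg20 in brain, and Isg20 and Ifitm3 in spleen. Ifi204, a DNA sensor of the HIN-200 family, was 22.6-fold (15.6 to 33.3) higher in responding than in other cells of the brain. In those of the spleen it was 47.1-fold (33.0 to 67.6) higher. Gzmb, a cytotoxic protease, stood at 102 CPM in responding and 9.31 CPM in other spleen cells, 11.0-fold (9.09 to 13.1). Between responding and other brain cells its ratio was 4.37 (3.85 to 4.94). Gzmc, a related granzyme, was near the minimum, at 10.1 CPM in responding and 0.407 CPM in other spleen cells. Its ratio of responding to other cells was 24.9 (12.1 to 49.5) within spleen and 2.76 (0.93 to 6.78) within brain, where the interval includes 1. Sdc3, a syndecan, had ratios of responding to other cells of 8.94 within brain and 11.1 within spleen. It was also near the minimum, at 10.8 CPM in responding and 1.20 CPM in other brain cells.

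Brain cells whose receptor used TRBV26 responded in 22 of 250 cases, 8.80% (5.60 to 13.0), and cells with other TRBV genes in 5.86% (5.03 to 6.78). Within TRBV26, 0 of 68 brain cells with TRAV7-5 responded, which allows a share of up to 5.28% by the exact interval. These 68 cells belonged to 4 clonotypes, and 1 clonotype held 57 of them. The 22 responding TRBV26 cells of the brain belonged to 15 clonotypes. Cells of 1 clonotype are not independent, so the intervals by receptor segment are too narrow. In spleen the shares were 2.62% (1.14 to 5.10) for TRBV26 and 1.99% (1.66 to 2.36) for other TRBV genes. This segment was noticed after its values were seen.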
